A study of Homo sapiens with 24 samples.

Results

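Total RNA of A2780 cells, an established human epithelial ovarian cancer line, was compared between 6 days of culture in normoxia and earlier normoxia, for which the 6 hr and 48 hr normoxia samples were pooled. The comparison holds 6 of the 12 total RNA libraries of the study, whose 24 samples also include precursor miRNA from each library: libraries 9 and 10 at 6 days, and libraries 1 and 2 (6 hr) and 5 and 6 (48 hr) as early normoxia. These libraries were chosen by their labels alone, not by any measured value. The other 6 libraries are cells kept in a chamber at 1% oxygen (hypoxia) for 6 days (libraries 11 and 12), 6 hr (3 and 4) or 48 hr (7 and 8). All groups were grown at 5% CO2 in RPMI with gentamicin and fetal bovine serum at 10 to 15%. From each sample 3 ug of RNA was depleted of ribosomal RNA and sequenced in reads of 75 bases from a SOLiD whole-transcriptome library. A2780 is 1 cell line, and no label states that the libraries of a group are separate cultures. The p-values therefore cover the spread among these libraries alone, which may be technical. Nor do the labels state whether medium was renewed or cells were split during the 6 days, so hours in culture, cell density and the state of the medium cannot be told apart.

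As background, cells in medium that is not renewed use up nutrients and growth factors. Loss of an amino acid activates the kinase GCN2, which slows protein synthesis and favours translation of the transcription factor ATF4. ATF4 turns on genes for amino acid synthesis, amino acid transport and tRNA charging. MondoA is a sensor of glucose-derived metabolites that turns on TXNIP when they are plentiful. FOXO factors are held out of the nucleus by AKT while growth factors signal. Growing cells in turn spend much of their effort on ribosomes, on chaperones that fold new protein, and on DNA copying.

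Values are RPKM, reads per kilobase of transcript and per M mapped reads (M being 1e6), 1 value per gene symbol and library. A symbol was tested when it reached 1 RPKM in at least 2 of the 12 libraries, which left 11933 of 22446. Changes are differences of log2(RPKM + 0.5), tested with limma over all 11933 symbols with Benjamini-Hochberg adjustment, and called at an adjusted p below 0.05. Folds below are on that scale, on which the folds of weakly expressed genes come out too small. Values of single libraries are given in the order 9 and 10, then 1, 2, 5 and 6. RPKM is a share of each library, and in bulk RNA fewer cells of a type and less RNA per cell cannot be told apart.

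Reads per library, inferred from the steps of low values in the precursor miRNA samples of the same library numbers, were 29.8 and 30.3 M at 6 days, and 51.8, 26.1, 40.7 and 46.3 M in the early libraries. Libraries of 1 group had a Pearson r of 0.989 to 0.995 across genes, although genes are no independent replicates. Libraries 1 and 2 were furthest apart, with a median absolute log2 difference of 0.20, and library 2 stood alone on the second principal component of the normoxia libraries. Component 1, with 78.3% of the variance, set the 6-day libraries (-46.8 and -46.7) apart from the early ones (20.5 to 25.9). Short RNAs, by a name that starts with SNOR, SCARNA, RNU or MIR, took 72.5 and 71.3% of the summed RPKM at 6 days, and 65.0 to 74.1% early. Of the epithelial markers, EPCAM had 38.2 and 33.2 RPKM at 6 days, against 40.8, 39.7, 40.0 and 40.8 RPKM early, and was not called (adjusted p = 0.0787), though it was without library 9. KRT18 had 25.3 and 27.2 RPKM at 6 days, against 32.8, 34.2, 31.1 and 32.5 RPKM early (adjusted p = 0.00656), and was not called without library 9 or with short RNAs left out. KRT19, CDH1, CLDN4 and MUC16, also epithelial, and the ovarian and Müllerian markers PAX8, WT1, PAX2, SOX17 and EMX2 were all below 0.1 RPKM in these 6 libraries. KRT8, also epithelial, had 0.655 to 0.864 RPKM at 6 days, against 0.615 to 1.34 RPKM early. The mesenchymal filament gene VIM stood at 746 and 768 RPKM at 6 days, against 829, 712, 835 and 819.5 RPKM early. Other mesenchymal markers were low, so the sum of that list, given below, is nearly all VIM. ZEB1 had 3.19 to 3.57 RPKM at 6 days, against 1.98 to 2.75 RPKM early. CDH2 had 0.737 to 0.809 RPKM, against 0.941 to 1.08 RPKM, and FN1 0.0413 to 0.0604 RPKM, against 0.0278 to 0.105 RPKM. Summed over the lists, 4 endothelial markers reached 0.0507 to 0.0526 RPKM at 6 days, against 0.0320 to 0.0475 RPKM early, and 5 immune markers 0.464 to 0.543 RPKM, against 0.345 to 0.791 RPKM. The 7 epithelial markers summed to 61.4 to 64.2 RPKM at 6 days, against 71.8 to 75.3 RPKM early, 4 mesenchymal markers to 750.1 to 772 RPKM, against 715 to 838 RPKM, and 3 neural markers to 2.86 to 4.29 RPKM, against 3.57 to 5.95 RPKM.

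The windows around the transcription start of 3 gene groups that moved together are shown first, because each group has a known control element. The amino acid response element bound by ATF4 (TGATGNAA), the inverted pair of heat shock units (GAANNTTC) and the E-box bound by MYC (CACGTG) were searched on both strands of RefSeq windows (GRCh38.p14) that run from 250 bases before to 50 bases after a start. The ATF4 letters were present in 9 of 42 windows (21.4%) of the ATF4 list, for which 25 of 32 genes had a window, in 6 of 16 windows (37.5%) of the tRNA synthetases, with 13 of 20 genes, and in 3.62% of all 35116 windows. Heat shock letters lay in 11 of 23 windows (47.8%) of the heat shock chaperones, with 16 of 18 genes, and in 6.77% of all windows. E-box letters lay in 15 of 45 windows (33.3%) of the ribosome biogenesis list, with 38 of 46 genes, and in 7.26% of all windows. These matches are a description of letters, not of binding, and a gene can have several windows that overlap. Not every gene with a match moved with its group. Of 9 such genes in the ATF4 list SLC1A5 fell, and of 6 tRNA synthetases TARS was not called. Among 15 ribosome biogenesis genes with a match, FBL and NOP10 were not called. For each group the 2 called genes of largest change with a match are printed, 120 bases on the gene's own strand, each with 1 match in capitals. Counting the first transcribed base as position 1, the matches begin at -209 for CHAC1 (chr15:40953221-40953340, plus strand), -68 for ASNS (chr7:97872413-97872532, minus), -230 for HSPA8 (chr11:123062267-123062386, minus), -105 for HSPA1B (chr6:31827577-31827696, plus), -5 for RRP9 (chr3:51941855-51941974, minus) and 10 for PNO1 (chr2:68157818-68157937, plus).
CHAC1: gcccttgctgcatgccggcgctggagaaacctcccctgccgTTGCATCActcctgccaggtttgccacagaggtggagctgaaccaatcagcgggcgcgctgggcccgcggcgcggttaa
ASNS: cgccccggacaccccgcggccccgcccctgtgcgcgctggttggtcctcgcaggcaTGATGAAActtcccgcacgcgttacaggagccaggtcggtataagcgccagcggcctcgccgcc
HSPA8: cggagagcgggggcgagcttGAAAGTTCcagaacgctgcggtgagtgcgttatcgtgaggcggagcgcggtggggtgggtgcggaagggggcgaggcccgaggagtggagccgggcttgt
HSPA1B: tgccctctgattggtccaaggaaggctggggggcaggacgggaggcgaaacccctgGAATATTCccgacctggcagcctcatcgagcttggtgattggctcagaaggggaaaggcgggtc
RRP9: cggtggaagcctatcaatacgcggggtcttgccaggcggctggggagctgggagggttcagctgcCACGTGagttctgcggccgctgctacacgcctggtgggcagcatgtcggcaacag
PNO1: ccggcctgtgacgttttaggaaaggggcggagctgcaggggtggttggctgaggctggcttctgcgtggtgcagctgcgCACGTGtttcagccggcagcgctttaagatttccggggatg
The window of HSPA8 holds another match, at -50, outside the bases printed. CHAC1 and ASNS are among the genes that rose most at 6 days, and HSPA8, HSPA1B, RRP9 and PNO1 fell.

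After 6 days in normoxia, genes of the ATF4 amino acid response, targets of FOXO factors and the glucose-sensing pair TXNIP and ARRDC4 were higher than in early normoxia. Heat shock chaperones, ribosome biogenesis factors, the chaperonin and proteasome, DNA replication genes and the SNAR family of small RNAs were lower. Over all 11933 genes, 3747 (31.4%) were higher and 3754 (31.5%) lower, of which 677 and 542 changed at least 2-fold. The libraries of both stages did not overlap for 7968 genes (66.8%). These shares are the background against which the counts of each list are to be read, but they depend on the filter. With a filter of 5 RPKM, 2092 of 7742 genes were higher and 2997 lower, with a median log2 change of -0.093. Without a filter, 4589 of 21540 were higher and 3628 lower. For lists of well-expressed genes the background therefore holds more genes lower than higher. The lists were chosen with earlier results of these data known, so counts above the background can partly reflect that choice. The median log2 change of all genes was 0.0055.

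**Figure D1:**
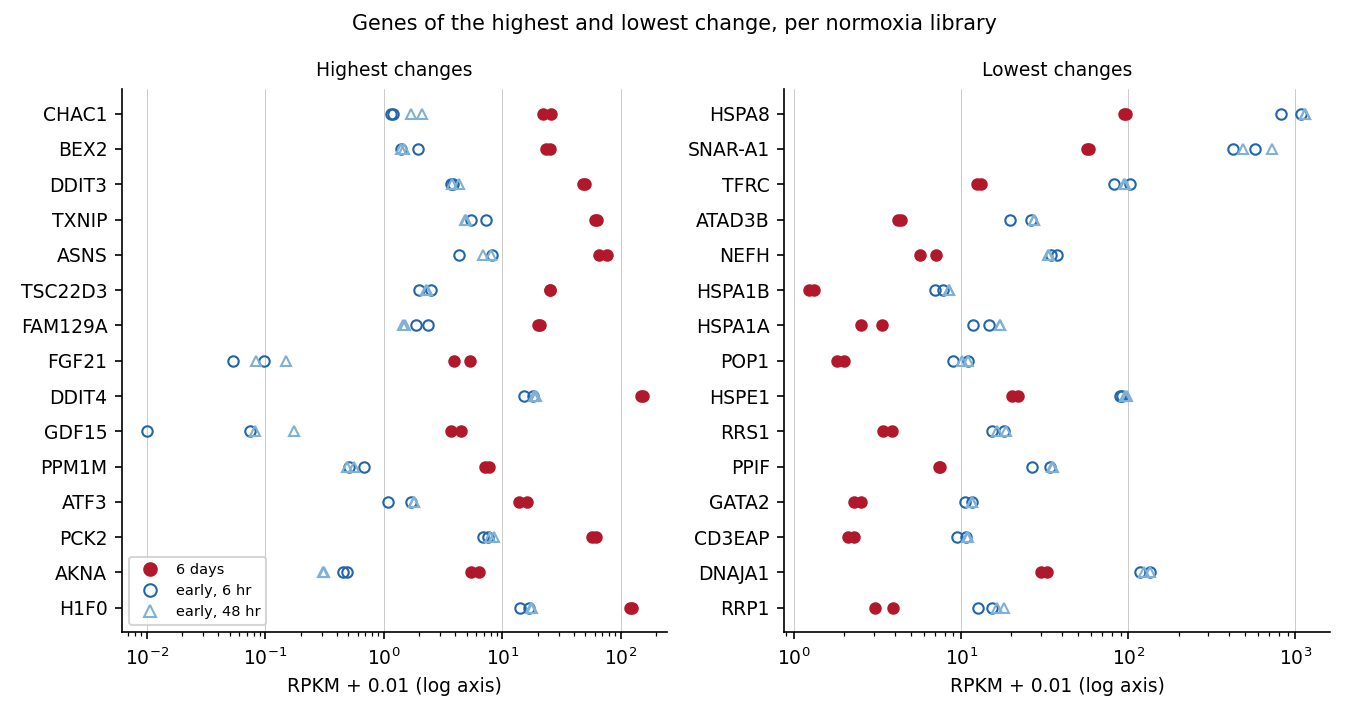
RPKM plus 0.01 in each normoxia library (log axis) for the 15 genes of highest change, left, and for HSPA8, 1 SNAR row and the 13 next lowest genes, right. Filled circles are the 2 libraries of 6 days, open circles 6 hr and open triangles 48 hr. These genes were picked only without overlap, so in every row the 6-day points lie apart from all 4 early points.

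CHAC1, which degrades glutathione and is a target of ATF4, changed most upward. It had 22.0 and 25.8 RPKM at 6 days, against 1.14, 1.18, 2.09 and 1.69 RPKM early, a rise of 12.2-fold (adjusted p = 4.01e-09). BEX2, an X-linked signalling adaptor, had 25.3 and 23.2 RPKM at 6 days, against 1.38, 1.94, 1.39 and 1.46 RPKM early (12.2-fold). DDIT3, the stress factor CHOP, had 47.6 and 49.7 RPKM at 6 days, against 3.71, 3.85, 3.78 and 4.32 RPKM early (11.1-fold, adjusted p = 1.89e-09). In all 3 genes both late libraries exceeded each early one by several fold. The genes of highest and lowest change were named only where late and early libraries did not overlap. TXNIP, a brake on glucose uptake and an inhibitor of thioredoxin, had 60.4 and 63.3 RPKM at 6 days, against 7.23, 5.40, 4.79 and 4.91 RPKM early (10.4-fold, adjusted p = 8.24e-09). ASNS, the asparagine synthetase, had 76.7 and 65.1 RPKM, against 4.32, 8.17, 6.87 and 7.97 RPKM (9.96-fold, adjusted p = 1.33e-07). The next were TSC22D3, a glucocorticoid-induced leucine zipper protein (25.3 and 25.3 RPKM, against 1.99 to 2.47 RPKM), and FAM129A, a stress-induced regulator of translation (20.6 and 20.1 RPKM, against 1.43 to 2.35 RPKM). The early libraries of these genes spanned a narrow range beside the gap to 6 days.

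The secreted stress hormones FGF21 and GDF15 were near 0 early. FGF21, a hormone of nutrient stress, had 5.30 and 3.88 RPKM at 6 days, against 0.0872, 0.0432, 0.139 and 0.0733 RPKM early (8.63-fold). GDF15, a growth factor that acts on appetite, had 3.66 and 4.49 RPKM at 6 days, against 0, 0.0638, 0.164 and 0.0720 RPKM early (7.96-fold). Both were low genes whose fold depends on the pseudocount. FGF21 and GDF15 reached the level of the filter only at 6 days, in normoxia and in hypoxia, so they were tested only because they were high late. Genes so low early had little room to fall, so their direction and low early level are partly fixed by how they were chosen. DDIT4, an inhibitor of the growth kinase mTORC1, had 149 and 152 RPKM at 6 days, against 18.2, 15.3, 19.3 and 18.3 RPKM early (8.29-fold, adjusted p = 5.25e-09). The phosphatase gene PPM1M, the stress factor ATF3, the mitochondrial PEP carboxykinase PCK2, the AT-hook protein gene AKNA and the linker histone H1F0 rose 7.5004-, 7.45-, 7.33-, 7.29- and 7.16-fold. H1F0, known as a linker histone of cells that stop dividing, had 119 and 124 RPKM at 6 days, against 14.1 to 17.6 RPKM early.

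The ATF4 amino acid response was called in full: of 32 genes 30 rose and 2 fell, with a median log2 change of 1.65, against 0.0055 over all genes. ATF4 itself had 139.6 and 143 RPKM at 6 days, against 58.5, 46.6, 72.9 and 71.8 RPKM early (2.29-fold, adjusted p = 3.32e-06). Beside CHAC1, DDIT3, ASNS and DDIT4 the list holds ALDH1L2, a mitochondrial folate enzyme (13.2 and 13.9 RPKM, against 1.56 to 1.66 RPKM), TRIB3, a pseudokinase that binds AKT (34.6 and 34.5 RPKM, against 4.65 to 6.30 RPKM), and PHGDH, the first enzyme of serine synthesis (54.9 and 52.4 RPKM, against 8.46 to 11.9 RPKM). SLC7A11, the cystine transporter, rose 4.48-fold. CEBPB rose 3.55-fold and the amino acid transporter SLC38A2 2.06-fold. The lipoprotein receptor VLDLR rose 4.99-fold. The 2 that fell are importers of glutamine or large neutral amino acids. SLC7A5 had 14.7 and 15.8 RPKM at 6 days, against 20.3, 22.4, 21.4 and 22.1 RPKM early (log2 -0.48 ± 0.076, SE). SLC1A5 had 30.7 and 34.7 RPKM at 6 days, against 35.7, 43.7, 37.9 and 37.8 RPKM early, and its call (adjusted p = 0.0452) ended under 11 of the 16 alternative settings, among them removal of library 2, 5, 6 or 9.

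Cytosolic aminoacyl-tRNA synthetases, which load amino acids onto tRNA, split: 12 of 20 rose and 5 fell, with a median of 0.38. SARS, for serine, had 56.6 and 60.6 RPKM at 6 days, against 20.8, 18.4, 22.1 and 21.7 RPKM early (2.78-fold, adjusted p = 1.52e-07). CARS, MARS and LARS, for cysteine, methionine and leucine, rose 2.66-, 2.65- and 2.50-fold. LARS was less steady early, at 8.12, 17.9, 10.7 and 12.7 RPKM, against 31.6 and 29.2 RPKM at 6 days. Both subunits of the phenylalanine enzyme fell: FARSA had 11.1 and 12.6 RPKM at 6 days, against 26.5, 27.3, 29.7 and 29.0 RPKM early (2.32-fold lower), and FARSB was 1.56-fold lower. HARS, for histidine, was 2.20-fold lower.

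In the nucleotide and one-carbon list 4 of 24 rose and 17 fell (median -0.55). The mitochondrial folate enzymes MTHFD2 (147 and 157 RPKM, against 64.4 to 76.1 RPKM) and SHMT2 (42.8 and 46.6 RPKM, against 17.2 to 24.3 RPKM) are among those that rose, and both also stand in the ATF4 list. IMPDH1, which opens guanine nucleotide synthesis, fell to 15.3 and 14.7 RPKM, against 31.3 to 48.4 RPKM early, and UMPS of pyrimidine synthesis was 2.13-fold lower.

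Both tested targets of MondoA rose: beside TXNIP, its relative ARRDC4 had 6.64 and 6.93 RPKM at 6 days, against 1.59, 1.35, 1.24 and 1.19 RPKM early (3.97-fold, adjusted p = 3.18e-08). MLXIP, which encodes MondoA, fell to 1.73 and 1.91 RPKM, against 3.82 to 5.61 RPKM early. Of 15 FOXO targets and genes of growth factor withdrawal, 12 rose and 0 fell (median 0.79). Without library 1, 2 were lower, and quantile normalization gave 10 higher and 3 lower. CCNG2, a cyclin of resting cells, had 6.35 and 6.85 RPKM at 6 days, against 0.673, 0.622, 0.704 and 0.644 RPKM early (6.12-fold). The repressor BCL6 (1.68 and 1.44 RPKM, against 0.183 to 0.261 RPKM), the PI3-kinase inhibitor PIK3IP1 (1.35 and 1.30 RPKM, against 0.135 to 0.265 RPKM) and FOXO3 (7.90 and 8.33 RPKM, against 2.44 to 3.35 RPKM) rose as well. All 4 had late values above every early one, but they were named for the largest change in their list, and 66.8% of all genes did not overlap. In normoxia CCNG2, BCL6 and PIK3IP1 reached the 1 RPKM of the filter only at 6 days. In the MYC and MAX network 5 of 11 rose and 4 fell. The MYC antagonist MXI1 rose 3.72-fold and MYCL1 3.26-fold, and MYC fell to 18.3 and 20.4 RPKM, against 25.1 to 29.1 RPKM early (1.41-fold lower, adjusted p = 4.85e-04).

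**Figure D2:**
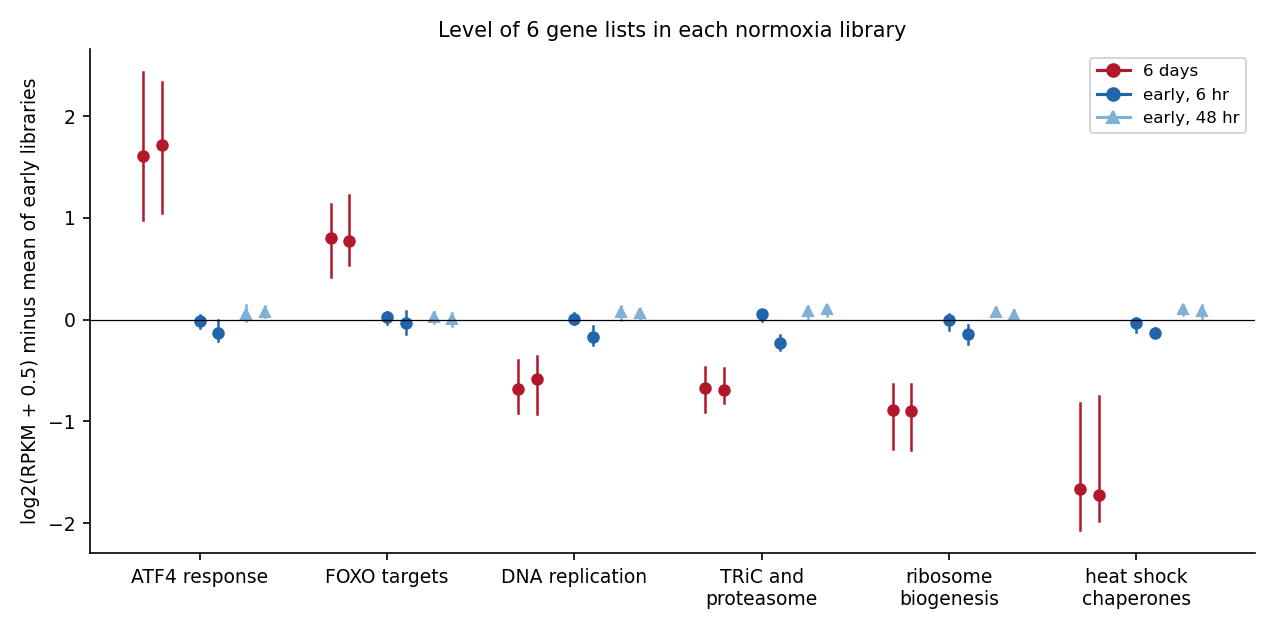
Level of 6 gene lists in each normoxia library, as the median over the tested members (points) and their quartiles (lines) of log2(RPKM + 0.5) minus the gene's mean over the 4 early libraries. The 6-day medians are 1.60 and 1.72 for the ATF4 list and -1.67 and -1.73 for the heat shock chaperones, while the early medians of the 6 lists lie between -0.23 and 0.10.

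Heat shock chaperones held the gene of lowest change. HSPA8, the constitutive HSC70 chaperone that folds newly made protein, had 93.7 and 96.9 RPKM at 6 days, against 1087, 816, 1141 and 1141 RPKM early (10.8-fold lower, adjusted p = 1.53e-08). Of 16 tested chaperones and co-factors 15 fell and 1 rose, with a median of -1.70. The inducible HSP70 genes HSPA1B (1.22 and 1.31 RPKM, against 7.74, 6.96, 8.43 and 8.42 RPKM) and HSPA1A (2.50 and 3.34 RPKM, against 14.6, 11.7, 17.2 and 17.0 RPKM) are near-identical copies, and either value is uncertain because reads can be shared. HSPE1, the mitochondrial co-chaperonin, had 21.9 and 20.05 RPKM at 6 days, against 89.6, 91.5, 95.6 and 98.7 RPKM early (4.39-fold lower, adjusted p = 5.76e-09). DNAJA1, a J-domain partner of HSP70, fell 4.05-fold. HSPH1, its exchange factor, and HSP90AA1 fell 3.69- and 3.41-fold, HSP90AA1 to 101 and 101 RPKM, against 324 to 366 RPKM early. The 1 that rose was HSPA9, the HSP70 of mitochondria, at 140.0 and 124 RPKM, against 92.0 to 119 RPKM early (1.25-fold), and without library 9 it was not called. Of 39 subunits of the TRiC chaperonin and the proteasome, 35 fell and 0 rose (median -0.68), with TCP1 at 67.6 and 65.7 RPKM, against 117 to 160.4 RPKM early, and PSMC4, PSMA2 and PSMD3 2.45-, 2.18- and 2.15-fold lower.

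In the endoplasmic reticulum list 7 of 20 genes rose and 11 fell (median -0.27), and without library 10 the number lower was 7. SDF2L1 (3.66-fold), CRELD2 (2.27-fold) and the lectin chaperone CALR fell, CALR to 97.0 and 101 RPKM, against 196 to 237 RPKM early. HERPUD1, which serves degradation of misfolded protein, had 15.1 and 14.1 RPKM at 6 days, against 4.65 to 6.28 RPKM early (2.48-fold), and the sensor ATF6 and the factor XBP1 rose 2.04- and 1.99-fold. HSPA5, the main chaperone of the compartment, was not called, at 97.9 and 96.0 RPKM, against 80.5 to 102 RPKM early (adjusted p = 0.517), but was called higher with quantile normalization and with short RNAs left out.

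Ribosome biogenesis factors, which cut, modify and export ribosomal RNA, fell together. Of 46 tested, 43 fell and 0 rose, with a median of -0.90. RRS1, an assembly factor of the large subunit, had 3.86 and 3.41 RPKM at 6 days, against 18.0, 15.3, 18.4 and 16.4 RPKM early (4.24-fold lower, adjusted p = 5.00e-08). RRP1 (3.06 and 3.91 RPKM, against 15.4, 12.6, 17.9 and 16.4 RPKM) and its paralog RRP1B (6.03 and 5.85 RPKM, against 20.4, 20.9, 23.3 and 22.3 RPKM) fell 4.03- and 3.44-fold, and BOP1 3.32-fold. RRP9 and PNO1, whose windows are printed above, fell 3.20- and 3.00-fold. The early libraries did not overlap the late ones for 43 of the 46, beside 66.8% of all genes. Outside the list CD3EAP, a subunit of RNA polymerase I, had 2.29 and 2.10 RPKM at 6 days, against 10.7, 9.43, 11.1 and 10.8 RPKM early, and POP1, of RNase P and MRP, 1.80 and 1.97 RPKM, against 10.97, 8.90, 11.05 and 10.2 RPKM. Both were among the lowest genes.

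Most ribosomal proteins were not called. Of 79 cytosolic ones 25 rose, 2 fell and 52 were not called, a share of higher genes close to the 31.4% of all genes, with a median of 0.20. RPL3 had 344 and 357 RPKM at 6 days, against 188, 129.9, 207 and 214 RPKM early (1.93-fold, adjusted p = 2.35e-04), and RPL12, RPS18 and RPL13A rose 1.73-, 1.61- and 1.58-fold. RPL36A and RPS26 fell 1.39- and 1.34-fold, RPS26 not without library 9 or 10. Across the alternatives that kept the filter the count of ribosomal proteins ran from 12 to 48 higher, with 16 without library 10. The number lower was 5 without library 2 and 4 without library 5. Their many pseudogenes can take reads. Of 76 mitochondrial ribosomal proteins 3 rose and 42 fell (median -0.37), with 5 higher without library 1, 6 with trimmed-mean centring, 10 with short RNAs left out and 13 with quantile normalization. MRPS12 had 8.14 and 7.20 RPKM at 6 days, against 25.0, 21.7, 29.0 and 28.4 RPKM early (3.23-fold lower), and MRPL20 was 2.45-fold lower. In the nuclear-encoded respiratory chain 13 of 76 rose, 6 without library 10, and 22 fell. The balance turned round to 28 higher and 15 lower with quantile normalization and to 24 higher and 17 lower with short RNAs left out, and the median, -0.042, changed sign between -0.089 and 0.11 across the alternatives that kept the filter. ATP5G1 and ATP5G3, of the ATP synthase ring, fell 2.16- and 1.996-fold, and NDUFA7 of complex I rose 1.96-fold.

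SNAR RNAs, short transcripts of RNA polymerase III that bind the protein NF90, fell as a family. Of 27 tested rows 27 fell, with a median of -2.98, but only 14 of the 28 rows in the data are distinct, because near-identical copies carry the same values. SNAR-A1, with the same values as SNAR-A2, had 56.9 and 58.5 RPKM at 6 days, against 572, 423, 729 and 484 RPKM early (9.30-fold lower, adjusted p = 1.15e-07). SNAR-A3 had 51.1 and 54.2 RPKM, against 512, 374, 582 and 371 RPKM, and SNAR-D 13.99 and 11.1 RPKM, against 126, 108, 102 and 79.3 RPKM. Summed over the distinct rows, the family had 892 and 879.5 RPKM at 6 days, against 7130 RPKM in library 1, 5138 in library 2, 6145 in library 5 and 4580 in library 6. Other short RNAs mostly did not pass: of 213 tested SNORD genes 53 rose and 7 fell, of 99 SNORA genes 11 and 2, of 24 SCARNA genes 6 and 0, and of 155 MIR rows 20 and 16. Short genes can share reads with the introns that host them.

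The other genes of lowest change had varied roles. TFRC, the receptor for iron-loaded transferrin, had 13.2 and 12.5 RPKM at 6 days, against 102, 81.7, 94.6 and 95.3 RPKM early (7.03-fold lower, adjusted p = 5.69e-09). ATAD3B, a mitochondrial membrane ATPase, had 4.19 and 4.37 RPKM, against 26.1, 19.5, 27.4 and 27.1 RPKM (5.29-fold lower). The neurofilament gene NEFH had 5.66 and 7.04 RPKM, against 37.5, 34.7, 32.9 and 33.7 RPKM (5.16-fold lower). None of the 3 had a late library within the early range, which the rule for naming them required. PPIF, cyclophilin of the mitochondrial pore, and GATA2, a transcription factor, fell 4.17- and 4.11-fold.

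Genes of DNA replication were mostly lower. Of 41 such genes 33 fell and 1 rose (median -0.62), with 5 higher under quantile normalization and 3 with short RNAs left out. The 1 that rose was the RPA subunit RPA3 (1.29-fold), which was not called without library 9. FEN1, the flap nuclease, had 10.3 and 10.4 RPKM at 6 days, against 28.6, 26.3, 31.6 and 28.9 RPKM early (2.71-fold lower, adjusted p = 1.59e-07). MCM4 of the helicase had 16.6 and 16.6 RPKM, against 45.3, 40.7, 43.8 and 45.3 RPKM, and RRM2, of ribonucleotide reductase, and the sliding clamp PCNA fell 2.56- and 2.43-fold. Of 38 mitosis genes 7 rose and 21 fell (median -0.27), and the number lower was 16 without library 9, 17 without library 10 or with short RNAs left out, and 15 with quantile normalization. CCNB1, AURKB and AURKA fell 1.90-, 1.86- and 1.81-fold, and the phosphatase CDC25C rose 2.38-fold. MKI67, the Ki-67 proliferation marker, had 11.6 and 11.8 RPKM at 6 days, against 13.2, 19.5, 15.1 and 20.4 RPKM early (log2 -0.50 ± 0.17, SE, adjusted p = 0.0254), and lost its call under 7 of the 16 alternatives, among them removal of library 2, 6, 9 or 10.

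Cyclins of the G1 phase fell while some inhibitors of cyclin-dependent kinases rose. In the list of cyclins, CDK inhibitors and E2F factors 6 of 23 rose and 11 fell (median -0.19). CCNE1 had 4.90 and 4.003 RPKM at 6 days, against 13.5, 14.003, 14.2 and 13.6 RPKM early (2.90-fold lower, adjusted p = 1.01e-07), and CCNE2, CCND3 and CCND1 fell 3.14-, 2.48- and 1.53-fold. The inhibitor CDKN1C (p57) had 1.95 and 2.28 RPKM at 6 days, against 0.120, 0.130, 0.209 and 0.110 RPKM early (4.07-fold, adjusted p = 1.94e-07). CDKN1B (p27) rose 2.10-fold and RBL2 (p130), a pocket protein of resting cells, 2.09-fold. CDKN1A (p21) was not called, at 0.539 and 0.828 RPKM, against 0.776, 0.767, 0.747 and 1.01 RPKM early (adjusted p = 0.240), and with quantile normalization it was called lower.

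Replication-dependent histone genes included 28 of 48 that rose and 3 that fell (median 0.51). Without library 10, 22 were higher, and the number lower was 1 without library 9 and 5 without library 5. HIST1H4J had 998 and 989.8 RPKM at 6 days, against 187, 225, 232 and 377 RPKM early (4.03-fold, adjusted p = 7.97e-06). HIST1H4A, HIST1H4I and HIST1H2AD rose 3.54-, 3.13- and 2.85-fold. Near-identical copies can share reads, so single histone values are uncertain. Their messages lack a poly(A) tail in dividing cells, and libraries made from RNA depleted of ribosomal RNA can include them.

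**Figure D3:**
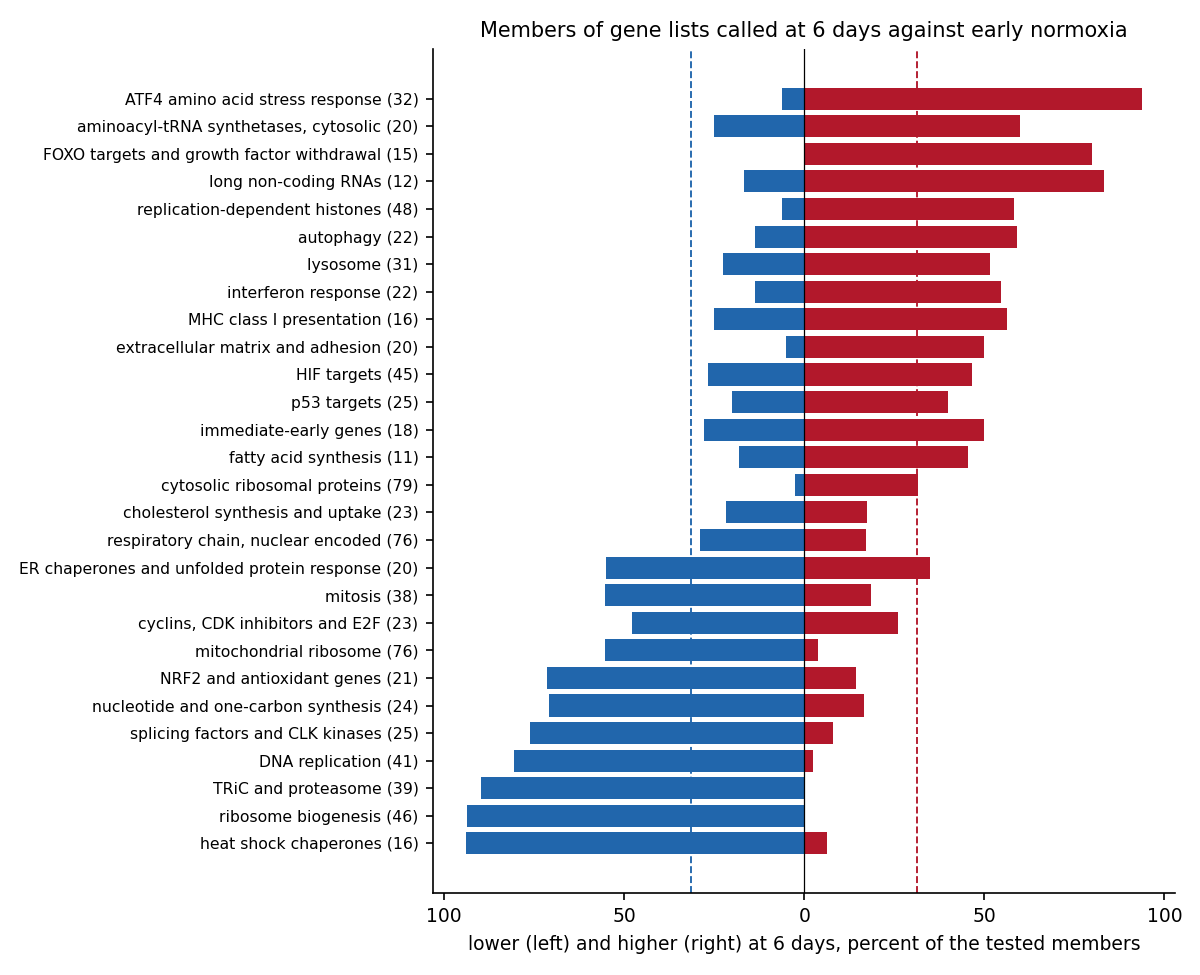
Share of the tested members of 28 gene lists that were higher (right, red) or lower (left, blue) at 6 days than in early normoxia at an adjusted p below 0.05. The number tested stands beside each name, and dashed lines mark the shares over all genes, 31.4% higher and 31.5% lower. The ATF4, FOXO and long non-coding RNA lists reach furthest right, and the heat shock, ribosome biogenesis and TRiC and proteasome lists furthest left.

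Splicing factors fell: 19 of 25 were lower and 2 higher (median -0.75). SRSF2 had 25.1 and 24.2 RPKM at 6 days, against 77.1, 72.8, 72.7 and 76.7 RPKM early (2.99-fold lower, adjusted p = 7.84e-08). U2AF1, which reads the end of the intron, and SRSF3 fell 2.86- and 2.19-fold, and the 2 that rose were the kinases CLK1 (1.26-fold) and CLK2 (1.18-fold). CLK1 was not called without library 10, and CLK2 not without library 2, 5, 9 or 10. Long non-coding RNAs rose, 10 of 12, with 2 lower (median 0.95). GAS5, a snoRNA host that accumulates when translation slows, had 184 and 168 RPKM at 6 days, against 41.6, 39.1, 52.0 and 52.1 RPKM early (3.81-fold, adjusted p = 8.12e-08). NEAT1, the paraspeckle scaffold, had 41.4 and 41.2 RPKM, against 11.7, 14.4, 10.5 and 10.1 RPKM, and MALAT1 474 and 444 RPKM, against 135, 204, 119 and 123 RPKM. SNHG8 rose 2.61-fold. The 2 that fell were SNHG12 (2.02-fold) and H19 (1.69-fold). Of 10 tested humanin-like transcripts, 5 rose and 0 fell (MTRNR2L10 at 443 and 383 RPKM, against 229, 153, 322 and 344 RPKM), a count that ran from 0 to 8 across the alternatives that kept the filter, with 0 higher without library 9, 2 without library 10 and 3 without library 2 or 6. These copies of mitochondrial 16S RNA can share reads.

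Targets of the hypoxia-inducible factors (HIF) were mixed in these normoxic cells: 21 of 45 rose and 12 fell (median 0.11). The aldolase ALDOC had 7.80 and 9.58 RPKM at 6 days, against 1.44, 1.02, 2.02 and 1.84 RPKM early (4.48-fold, adjusted p = 1.00e-07). The glucose transporter SLC2A3 had 22.7 and 22.9 RPKM, against 5.13, 4.93, 5.06 and 5.47 RPKM, and the mitophagy receptor BNIP3L 12.4 and 11.7 RPKM, against 3.00, 3.11, 2.90 and 2.77 RPKM. PDK1, which holds back pyruvate dehydrogenase, rose 2.23-fold and the angiogenic factor VEGFA 1.503-fold. Among those that fell were the glycolytic enzymes LDHA (113 and 146 RPKM, against 248 to 265 RPKM), PGAM1 (2.01-fold lower) and ALDOA (1.84-fold lower). CA9, a carbonic anhydrase used as a marker of low oxygen, stood at 0.0431 and 0.0638 RPKM at 6 days, against 0.0248, 0, 0.0158 and 0.0139 RPKM early, and was not called (adjusted p = 0.478). NDRG1 stayed below 0.4 RPKM in all 6 libraries, yet was called higher at 6 days, though not with quantile normalization. HIF1A had 23.8 and 23.4 RPKM at 6 days, against 13.9, 21.3, 14.3 and 18.3 RPKM early (log2 0.49 ± 0.16, SE, adjusted p = 0.0230), and was not called without library 9, 10 or 5.

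Of 23 cholesterol genes 4 rose and 5 fell, shares below the background on either side, although 8 were higher with quantile normalization or with short RNAs left out. The median of 0.0092 changed sign between -0.023 and 0.12 across the alternatives that kept the filter. SREBF2, the master regulator of the pathway, had 20.3 and 20.2 RPKM at 6 days, against 7.03, 10.2, 9.96 and 9.97 RPKM early, and the cholesterol carrier STARD4 91.2 and 80.6 RPKM, against 41.0, 36.3, 40.7 and 42.1 RPKM. NSDHL, a late enzyme of synthesis, fell 1.86-fold. HMGCS1, an early enzyme of synthesis, was not called (14.04 and 14.4 RPKM, against 10.995 to 14.9 RPKM, adjusted p = 0.224), but was called higher with quantile normalization and with short RNAs left out. Of 11 fatty acid genes 5 rose and 2 fell (median 0.12), and with quantile normalization 9 were higher and 2 lower. ACSS2, which makes acetyl-CoA from acetate, and the desaturase SCD rose 2.53- and 2.15-fold, and FASN fell to 15.7 and 17.2 RPKM, against 30.2 to 40.6 RPKM early.

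Of 22 autophagy genes 13 rose and 3 fell (median 0.32), with 1 lower without library 9 or with short RNAs left out. GABARAPL1 had 14.4 and 11.9 RPKM at 6 days, against 4.02, 3.36, 4.25 and 4.02 RPKM early (3.09-fold, adjusted p = 2.09e-07), and the receptor NBR1, the membrane protein WIPI1 and MAP1LC3B rose 2.45-, 2.42- and 2.18-fold. In the lysosome list 16 of 31 rose and 7 fell (median 0.24). Acid glucosidase GAA had 3.65 and 4.08 RPKM, against 1.29, 1.73, 1.82 and 1.81 RPKM, the sterol carrier NPC2 rose 1.78-fold and the galactosidase GLA fell 2.28-fold. Of 21 antioxidant targets of NRF2 3 rose and 15 fell (median -0.48). PRDX1 fell to 151 and 157 RPKM, against 303 to 411 RPKM early, and OSGIN1 and SRXN1 fell 2.14- and 2.02-fold. SLC7A11, which also stands in the ATF4 list, and the ferritin chain FTH1 (1.67-fold) are among the 3 that rose.

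Of 25 p53 targets 10 rose and 5 fell, 9 with quantile normalization. The median of 0.0021 lay below 0 with quantile normalization and without library 2 or 5. GDF15, given above, is one of those that rose, and SESN2, a leucine sensor that holds back mTORC1, rose 5.00-fold. BBC3 (PUMA), which promotes cell death, had 7.02 and 8.49 RPKM at 6 days, against 1.43, 1.28, 1.95 and 1.30 RPKM early (4.17-fold, adjusted p = 2.41e-07), and the repair gene DDB2 rose 3.08-fold. AEN, a nuclease, fell 3.13-fold. The p53 ligase MDM2 was not called, at 10.5 and 8.94 RPKM, against 6.62, 9.51, 7.48 and 8.55 RPKM early (adjusted p = 0.0820), but was called higher without library 2, with quantile normalization and with short RNAs left out. Among immediate-early genes 9 of 18 rose and 5 fell, 3 without library 9 (median 0.34), with JUN at 8.93 and 10.8 RPKM, against 4.06, 2.40, 5.78 and 5.25 RPKM, KLF6 1.78-fold higher and SRF 1.68-fold lower.

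In the interferon list 12 of 22 rose and 3 fell (median 0.33). The number lower was 1 without library 9 and 0 without library 10, and the number higher was 7 with quantile normalization and 2 of the 8 members left by a filter of 5 RPKM. Largest changes were those of ISG20 (3.54 and 3.14 RPKM, against 0.545, 0.561, 0.308 and 0.429 RPKM), BST2 (2.30 and 2.43 RPKM, against 0.863, 0.530, 0.235 and 0.207 RPKM) and IFI35 (6.17 and 6.42 RPKM, against 2.19, 1.75, 2.28 and 1.73 RPKM). Of 16 genes of MHC class I presentation 9 rose and 4 fell (median 0.32). HLA-E and HLA-B rose 2.12- and 2.05-fold, and related HLA genes can share reads. Of 9 NF-kB targets 3 rose and 4 fell, with TRAF1 2.41-fold and the chemokine CXCL1 2.05-fold higher and SOD2 and NFKBIA 1.89- and 1.61-fold lower. Without library 10, 2 were lower, and the median of 0.072 ranged over -0.081 to 0.17 across the alternatives that kept the filter.

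Of 20 tested matrix and adhesion genes 10 rose and 1 fell (median 0.29), and 16 were higher with short RNAs left out. Those that rose include COL6A2 (0.709 and 0.771 RPKM, against 0.129, 0.256, 0.0523 and 0.110 RPKM) and the integrin ITGA3 (1.76-fold higher), while COL3A1 fell 1.25-fold, but not without library 9. The contractile genes ACTA2 (3.42 and 4.27 RPKM, against 13.6, 12.7, 14.8 and 16.8 RPKM) and TAGLN (30.3 and 32.3 RPKM, against 99.5, 92.6, 111 and 100.5 RPKM) fell 3.45- and 3.19-fold, as did the cytoskeletal genes ACTB (2.57-fold), TUBB (2.54-fold) and TUBA1B (1.91-fold), which with PPIA (1.91-fold) are often used as references. Of all 15 reference genes 2 rose and 5 fell, and their median of -0.088 ranged over -0.14 to 0.052 across the alternatives that kept the filter. ACTA2 and TAGLN also mark smooth muscle, whose 3 markers summed to 34.1 to 36.9 RPKM at 6 days, against 106 to 127 RPKM early. Of the fibroblast markers, THY1 fell (5.22 and 5.99 RPKM, against 7.59 to 8.76 RPKM) and DCN rose (17.2 and 18.3 RPKM, against 10.98 to 15.1 RPKM), and 7 such markers summed to 34.0 to 35.5 RPKM at 6 days, against 29.0 to 36.6 RPKM early. The part of other cells in these results was not tested. In the list for mesenchymal transition 3 of 10 rose and 3 fell, and without library 10 the counts were 1 and 1. The list holds the tight junction gene CLDN7 at 3.35 and 4.04 RPKM, against 0.871 to 1.16 RPKM. Of 17 YAP targets 7 rose and 3 fell, 1 with short RNAs left out, with the kinase AXL 2.85-fold higher and CTGF not called (2.51 and 2.81 RPKM, against 2.13, 3.50, 2.01 and 2.18 RPKM, adjusted p = 0.536). In the Notch list 4 of 12 rose and 4 fell, with HEY1 2.80-fold and the ligand JAG2 1.95-fold lower and HES4 1.73-fold higher, and in the WNT list 4 of 8 rose, 2 without library 9 or 10, and the receptor ligase ZNRF3 fell (2.03-fold).

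The pooled early group mixes 2 times, so each was also set against 6 days alone. These comparisons share the 6-day libraries and are given side by side. Against 6 hr, 3686 genes (30.9%) were higher and 3085 (25.9%) lower at 6 days, and against 48 hr 3227 (27.0%) were higher and 3865 (32.4%) lower. With short RNAs left out and libraries rescaled, the split against 48 hr became 4568 higher and 2717 lower, and the median of all genes was 0.15 in place of -0.035, so directions are relative to that shift. Of the ATF4 list 30 rose and 1 fell against 6 hr, and 30 rose and 1 fell against 48 hr. Heat shock chaperones showed 1 higher and 14 lower against 6 hr, and 0 and 15 against 48 hr. For ribosome biogenesis the counts were 0 higher and 42 lower, and 0 and 45. For DNA replication they were 1 and 31, and 1 and 32. Other lists depended on the early time. Cytosolic ribosomal proteins showed 40 higher and 1 lower against 6 hr, but 6 and 6 against 48 hr. Humanin-like transcripts showed 5 higher and 0 lower against 6 hr, but 0 and 0 against 48 hr. The nuclear-encoded respiratory chain showed 18 higher and 16 lower against 6 hr, but 6 and 28 against 48 hr.

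Between 48 hr and 6 hr themselves limma called 11 of 11933 genes (0.0922%), 1 higher and 10 lower at 48 hr, with 1957 at an unadjusted p below 0.05. The count rose to 1310 without library 1 and was 6 without library 2, the pair of libraries that stood furthest apart. Only 2 of the lower genes met the rule for naming. MT1F, a metallothionein, had 0.612 and 0.392 RPKM at 48 hr, against 2.43 and 2.69 RPKM at 6 hr, and MMP1, a collagenase, 46.6 and 47.4 RPKM, against 107 and 86.3 RPKM. At 6 days MT1F had 0.912 and 0.974 RPKM and MMP1 91.7 and 87.8 RPKM. Against the pooled early libraries the change of MMP1 was called (adjusted p = 0.00643), but not without library 9.

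Hypoxia libraries of the same times allow the late change to be set beside that at 1% oxygen. Hypoxia at 6 days was compared with early hypoxia (6 hr and 48 hr pooled), a comparison that shares no library with the normoxic one. In hypoxia 4201 genes (35.2%) were higher and 3925 (32.9%) lower. Called in both and in the same direction were 5753 genes, 70.8% of the 8126 hypoxia calls and 76.7% of the 7501 normoxia calls, and 189 were called in opposite directions. The difference of the late changes, hypoxia minus normoxia, was above 0 for 1432 genes (12%) and below 0 for 1302 (10.9%) at an adjusted p below 0.05. The total of 2734 such genes fell to 1406 without library 10 and to 1630 without library 9.

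**Figure D4:**
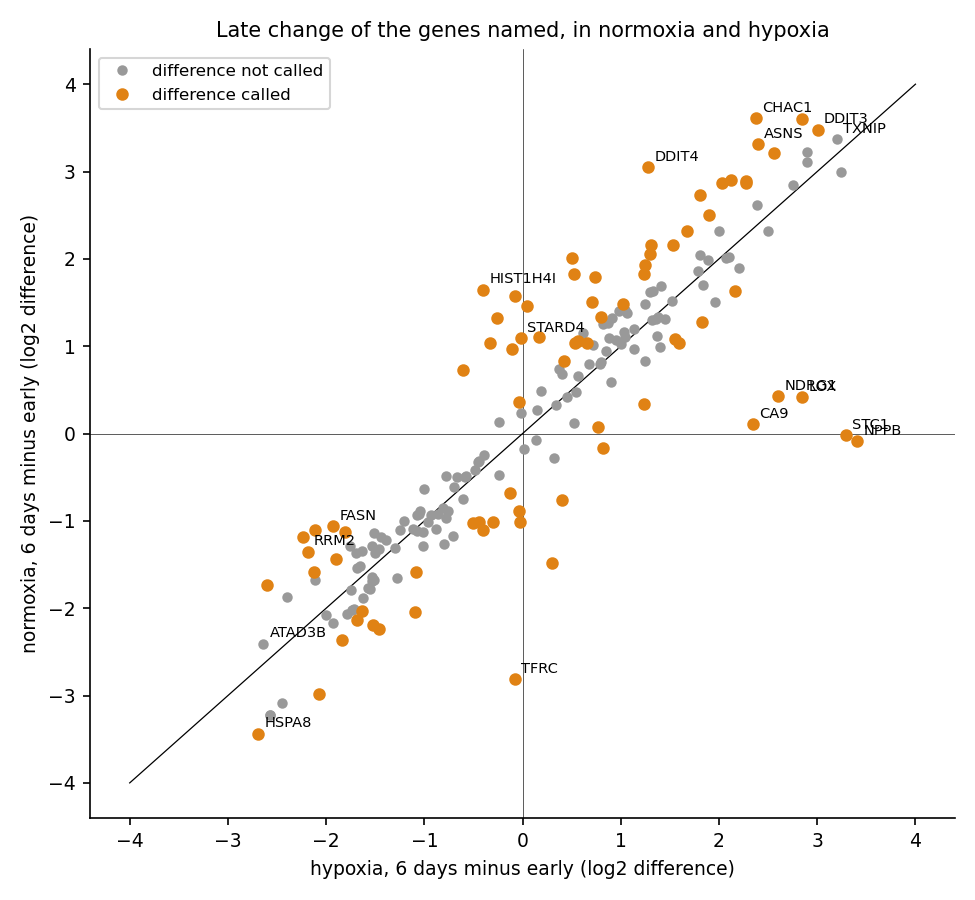
Late change (6 days minus early, log2 difference of RPKM + 0.5) of the tested genes named in the text, in hypoxia on the x axis and in normoxia on the y axis. Orange points are genes whose late change differed between hypoxia and normoxia at an adjusted p below 0.05, and the line marks equal change. TFRC, CA9, NDRG1, LOX, STC1 and NPPB lie far right of the line, and DDIT4 and HIST1H4I far left.

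TFRC differed most among the genes that fell in normoxia. In hypoxia it had 75.8 and 76.6 RPKM at 6 days, against 55.2, 55.6, 122 and 112 RPKM in libraries 3, 4, 7 and 8, and was not called (adjusted p = 0.498), and the difference to normoxia was 2.74 ± 0.14 (log2, SE, adjusted p = 2.56e-06). The early hypoxia libraries were themselves spread widely. NPPB, the natriuretic peptide precursor, STC1, a stanniocalcin, and the lysyl oxidase LOX rose late in hypoxia, with differences of 3.49 ± 0.21, 3.31 ± 0.15 and 2.43 ± 0.15. In normoxia NPPB had 0 and 0 RPKM at 6 days, against 0.0553, 0, 0.0703 and 0 RPKM early, and STC1 0.0173 and 0.0256 RPKM, against 0.0149, 0.0395, 0.0380 and 0.0167 RPKM. LOX was called higher at 6 days in normoxia as well, though not with quantile normalization. Of 45 HIF targets 26 had a late change further up in hypoxia and 2 further down, with CA9 at 2.24 ± 0.18 and NDRG1 at 2.17 ± 0.15. NPPB, STC1, CA9 and NDRG1 stayed below 1 RPKM in every normoxia library, so they passed the filter only through hypoxia libraries. Their differences therefore rest almost wholly on the hypoxia side, since genes so low in normoxia had little room to fall there. HEY1 rose in hypoxia (0.30, log2) and fell in normoxia (-1.49).

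The ATF4 response rose in hypoxia too, with 29 of 32 higher and 2 lower, but the late change was smaller in hypoxia for 16 genes and larger for 1. DDIT4 had 224 and 201 RPKM in hypoxia at 6 days, against 74.0, 63.2, 116 and 105 RPKM early, and its difference was -1.77 ± 0.14 (adjusted p = 9.26e-05). CHAC1 and ASNS differed by -1.23 ± 0.16 and -0.92 ± 0.26. CHAC1 had 21.7 and 23.2 RPKM in hypoxia at 6 days, against 1.65, 1.94, 8.91 and 7.20 RPKM early. ASNS had 44.1 and 49.9 RPKM, against 5.93, 6.76, 11.8 and 10.9 RPKM. Early hypoxia was higher at 48 hr than at 6 hr for DDIT4, CHAC1 and ASNS. A smaller late change therefore need not mean a lower level at 6 days. In normoxia at 6 days DDIT4 had 149 and 152 RPKM, CHAC1 22.0 and 25.8 RPKM and ASNS 76.7 and 65.1 RPKM. Histones showed 1 above 0 and 24 below 0 of 48, with HIST1H4I at 6.52 and 3.76 RPKM in hypoxia at 6 days, against 7.19, 6.45, 7.03 and 6.19 RPKM early (difference -2.05 ± 0.25), HIST1H4K at -1.58 ± 0.26, and the read-through row NEDD8-MDP1 at -1.66 ± 0.24. In cholesterol synthesis 16 of 23 genes fell late in hypoxia and 1 rose, and the difference was below 0 for 14 and above 0 for 0. In fatty acid synthesis it was below 0 for 9 of 11, with FASN at -0.87 ± 0.12. For DNA replication it was below 0 for 20 of 41 and above 0 for 0, with RRM2 at -0.84 ± 0.15. Heat shock chaperones fell in hypoxia as well, 15 of 16, with 5 differences above 0 and HSPA8 at 0.75 ± 0.19. Ribosome biogenesis showed 44 of 46 lower in hypoxia, with 2 differences above 0 and 7 below 0. SNORD genes rose in hypoxia, 144 of 213, against 53 in normoxia, and 73 differences were above 0. Humanin-like transcripts fell late in hypoxia, 9 of 10, and the difference was below 0 for 8.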

How the data were processed

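Values are the RPKM per gene symbol that the authors deposited for 12 total RNA libraries. The submitters' processing notes name Partek 6.6 and the build hg19, and the aligner is not given in the sources used here. The deposited RPKM are not counts and carry no strand information here, so no count test was used and antisense partners cannot be told apart. Here log2(RPKM + 0.5) of symbols that reached 1 RPKM in 2 or more of the 12 libraries was fitted with limma 3.58.1 in R 4.3.3, with 6 group means over all 12 libraries, an intensity trend and Benjamini-Hochberg adjustment at 0.05. Early normoxia is the mean of the 6 hr and 48 hr groups. The fit was also run on simulated data with independent noise, in which few genes changed and only in the 6-day normoxia libraries. Here most genes were called, so that run does not test these calls. By rule, the text names the 15 highest and 15 lowest changes among called genes with at least 2 RPKM in the higher stage and no overlap between stages, short RNAs left out, the 4 (or 2) called members of each list with the largest change, a few index genes, and the 4 highest and 4 lowest of the other contrasts. The 14 lowest genes outside the SNAR family, and other genes named singly, were added after their values were seen. A few genes that the rule names are not reported here. Members and lists were chosen with earlier results of these data known. The precursor miRNA samples served only to infer depth, which limits the precision of genes near 0. Start windows are RefSeq, GRCh38.p14. Alternatives tried were other pseudocounts, filters, scalings and fits, and leaving out each normoxia library.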

Additional observations from a re-analysis of the deposited data

Results flagged for a closer look

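Among the 4 early normoxia libraries, 16 of the 200 named genes had 1 library whose gap to the nearest other was a larger part of the whole range than the critical value of Dixon allows, where chance gives about 1 in 20. Library 2 was the lowest for ATF3 (1.08 RPKM, others 1.68 to 1.80), HSPA8 (816 RPKM, others 1087 to 1141), ATAD3B (19.5 RPKM, others 26.1 to 27.4), PDK1 (3.19 RPKM, others 3.52 to 3.59), CALR (196 RPKM, others 229.5 to 237), AURKA (18.6 RPKM, others 25.7 to 27.5), VIM (712 RPKM, others 819.5 to 835), SNHG12 (12.1 RPKM, others 17.2 to 18.0), SOD2 (28.7 RPKM, others 37.0 to 37.5) and PNO1 (14.3 RPKM, others 16.8 to 17.3). Library 1 was the lowest for GATA2 (10.5 RPKM, others 11.5 to 11.7), SREBF2 (7.03 RPKM, others 9.96 to 10.2) and GAA (1.29 RPKM, others 1.73 to 1.82). Library 2 was the highest for BEX2 (1.94 RPKM, others 1.38 to 1.46) and CTGF (3.50 RPKM, others 2.01 to 2.18). Library 6 was the highest for CDKN1A (1.01 RPKM, others 0.747 to 0.776).

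For 77 named genes the late change (6 days minus early) differed between hypoxia and normoxia, by the limma test of the difference itself at an adjusted p below 0.05. Some were named for this difference and many for their late change in normoxia, so their share among the named genes is partly fixed by how they were chosen. Values are log2, hypoxia minus normoxia. The difference was above 0 for NPPB (3.49), STC1 (3.31), TFRC (2.74), LOX (2.43), CA9 (2.24), NDRG1 (2.17), HEY1 (1.78), H19 (1.16), CDKN1A (0.98), LDHA (0.98), GATA2 (0.94) and SNAR-D (0.91). It was also above 0 for CLK1 (0.90), ALDOA (0.85), HSPA1B (0.79), HSPA8 (0.75), SRXN1 (0.72), OSGIN1 (0.70), HSPA5 (0.69), HSPA1A (0.66), PGAM1 (0.56), NFKBIA (0.56), WIPI1 (0.55) and HLA-B (0.55). Smaller differences above 0 were those of GABARAPL1 (0.53), NEFH (0.53), ZNRF3 (0.51), PNO1 (0.50), HLA-E (0.47), HSPE1 (0.45) and CD3EAP (0.39). The difference was below 0 for HIST1H4I (-2.05), DDIT4 (-1.77), NEDD8-MDP1 (-1.66), HIST1H4K (-1.58), HIST1H4J (-1.504), IFI35 (-1.42), CXCL1 (-1.36), MTRNR2L10 (-1.33), HIST1H4A (-1.30), CHAC1 (-1.23), STARD4 (-1.11) and NDUFA7 (-1.08). Next below 0 were NEAT1 (-1.05), CRELD2 (-1.05), ATP5G1 (-1.004), SREBF2 (-0.94), ALDH1L2 (-0.92), ASNS (-0.92), BOP1 (-0.87), FASN (-0.87), ALDOC (-0.85), PCK2 (-0.84), RRM2 (-0.84) and HIST1H2AD (-0.80). Then followed PPM1M (-0.79), BEX2 (-0.76), BBC3 (-0.76), GAS5 (-0.69), SRSF3 (-0.67), FAM129A (-0.65), PHGDH (-0.64), SLC7A11 (-0.63), ATF3 (-0.62), TRIB3 (-0.60), CEBPB (-0.60) and AKNA (-0.59). Further values below 0 were those of ACSS2 (-0.54), SRSF2 (-0.54), SHMT2 (-0.51), RBL2 (-0.50), DDIT3 (-0.47), FEN1 (-0.47), SARS (-0.46), KLF6 (-0.41), RPA3 (-0.41) and SLC38A2 (-0.39).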

How the results depend on the processing

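No paired analysis was possible because the groups compared share no library number. The 7501 genes called at 6 days against early normoxia became 1219 with a change of at least 2-fold, and 6119 (without library 9) to 7765 (without library 2) when 1 normoxia library was left out. With at least 2-fold the counts were 1196 against 6 hr, 1383 against 48 hr, 1708 in hypoxia and 348 for the difference between hypoxia and normoxia. Without the 2-fold limit that difference was called for 2734 genes, and for 1406 to 3617 when 1 library was left out, the highest without library 2. For 48 hr against 6 hr the 11 became 31 with a filter of 5 RPKM, 18 with trimmed-mean centring, 17 with short RNAs left out, 6 with normoxia libraries fitted alone, and 6 to 1310 when 1 library was left out, and the cause was not tested. With short RNAs left out the main split was 4523 higher and 3154 lower. Leaving out a library leaves some groups with 1, assumed to vary like the others. Of 200 tested genes named in the text, 179 kept their call and direction under every alternative, 21 had another call under at least 1, and none of the called changes reversed. Beside those given with the genes, KRT18 and RPS26 lost their call and MT1F gained one with quantile normalization, and LOX lost its call without library 10. With normoxia fitted as 2 groups RPS18, HSPA9, COL3A1, MTRNR2L10, MMP1 and CLK2 also lost theirs. CLK2 lost its call with normoxia fitted as 3 groups too, and CLK2 and HIF1A lost theirs without a filter. RPKM near 0 rest on few reads, which limits genes such as FGF21 and GDF15.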
